A study of Mus musculus with 6 samples.

Results

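The interleukin-1 and inflammasome genes are described here by their open chromatin in bone marrow macrophages of old and young mice. The set was given as a list of 10 genes, Il1a, Il1b, Il1rn, Il18, Nlrp3, Nlrc4, Casp1, Casp4, Pycard and Gsdmd, of 21627 protein-coding genes, by a rule that uses no measured value. The list was nonetheless chosen with earlier results of these data known. Each gene was taken with 10 kb on each side (mm10), and because the windows of Casp1 and Casp4 overlap there are 9 windows. Peaks of the 6 libraries, merged where they overlap, form 129 open regions in these windows, of 403801 in all.

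Each library is an Omni-ATAC library of 50000 macrophages; in ATAC-seq a transposase cuts and tags DNA that is not packed away, so peaks of its insertions mark open chromatin. The old mice were over 78 weeks old and the young mice 3 weeks old, with 3 libraries for each age. All were wild-type (WT) BALB/c mice, and all cells were marrow cells from crushed long bones that adhered and were expanded in culture, so culture is common to both ages. They were typed as F4/80+CD169+. Nothing in the labels ties a replicate to its own mouse or culture, so the spread behind every p-value is that between libraries and may be technical.

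Interleukin-1α and interleukin-1β are cytokines that start fever and local inflammation through the same receptor, and the antagonist encoded by Il1rn occupies that receptor without signalling. Interleukin-1β and interleukin-18 are made as inactive precursors. In the inflammasome, a sensor such as NLRP3 or NLRC4 recruits the adaptor ASC, encoded by Pycard, which gathers caspase-1; the caspase cuts both precursors and also gasdermin D, whose fragment forms pores in the membrane. Caspase-11, the product of mouse Casp4, senses bacterial lipopolysaccharide in the cytosol and cuts gasdermin D as well. In macrophages, Il1b and Nlrp3 are known as genes whose transcription is induced by inflammatory signals.

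The lists held 245667, 227978 and 215947 peaks in old replicates 1, 2 and 3, and 243924, 223018 and 254410 peaks in young replicates 1, 2 and 3. They covered 48.2 to 63.7 Mb in old and 52.3 to 66.0 Mb in young libraries. Read depth is unknown, so a gene's covered length was scaled to the library's sum over all genes, and strength was taken as a rank within a list. Macrophage markers had strong peaks, with a median percentile of 93.8 for the strongest peak within 1 kb of 11 such genes (100 is the strongest of a list). Spi1 averaged 92.9 in old and 96.6 in young libraries, Csf1r 93.8 in each, Adgre1, which encodes F4/80, 87.2 in old and 94.3 in young, and Siglec1, which encodes CD169, 64.2 in old and 77.5 in young. The 7 stromal and osteoblast markers had a median of 91.6 and the 5 B-cell markers 74.3, so strong peaks at marker genes did not by themselves single out the cell type. The median over the strongest peaks of the 10 genes described here was 90.8.

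The sequences just upstream of 6 starts are shown because these starts span the range of openness in the set, with Il18, Casp4 and Nlrp3 at strongly open starts, Nlrc4 lower, and Il1b and Il1a at weak ones. Each is 250 bases long, runs 5′ to 3′ on the gene's strand up to the base before the RefSeq start (GRCm38.p6), and has matches to the motifs searched in capitals.
Il18: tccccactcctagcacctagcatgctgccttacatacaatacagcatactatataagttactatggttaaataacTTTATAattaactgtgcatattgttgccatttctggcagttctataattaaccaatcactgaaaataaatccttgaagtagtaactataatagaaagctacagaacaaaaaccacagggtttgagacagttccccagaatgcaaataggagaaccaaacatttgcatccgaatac
Casp4: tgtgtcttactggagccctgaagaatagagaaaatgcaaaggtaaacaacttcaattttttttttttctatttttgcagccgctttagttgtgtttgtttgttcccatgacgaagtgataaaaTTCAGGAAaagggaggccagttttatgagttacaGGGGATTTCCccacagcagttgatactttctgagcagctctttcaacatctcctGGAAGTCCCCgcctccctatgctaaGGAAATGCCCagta
Nlrp3: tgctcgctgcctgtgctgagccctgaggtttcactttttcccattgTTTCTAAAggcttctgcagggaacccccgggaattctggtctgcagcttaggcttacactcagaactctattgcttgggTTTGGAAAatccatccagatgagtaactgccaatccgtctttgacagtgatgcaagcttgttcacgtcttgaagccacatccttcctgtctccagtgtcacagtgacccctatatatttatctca
Nlrc4: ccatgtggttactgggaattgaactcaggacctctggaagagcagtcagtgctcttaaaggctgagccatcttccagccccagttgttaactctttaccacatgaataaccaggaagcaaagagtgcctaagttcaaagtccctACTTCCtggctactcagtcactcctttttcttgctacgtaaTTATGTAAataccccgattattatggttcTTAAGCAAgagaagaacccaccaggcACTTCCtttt
Il1b: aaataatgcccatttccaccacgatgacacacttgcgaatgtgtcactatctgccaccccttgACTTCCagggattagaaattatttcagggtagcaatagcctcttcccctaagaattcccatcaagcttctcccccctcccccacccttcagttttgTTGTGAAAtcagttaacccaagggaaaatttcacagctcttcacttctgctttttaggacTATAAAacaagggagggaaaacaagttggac
Il1a: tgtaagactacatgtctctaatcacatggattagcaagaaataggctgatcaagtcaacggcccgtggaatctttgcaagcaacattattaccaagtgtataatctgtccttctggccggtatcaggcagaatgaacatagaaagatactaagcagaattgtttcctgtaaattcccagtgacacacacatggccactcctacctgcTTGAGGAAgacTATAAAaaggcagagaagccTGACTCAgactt
These run over chromosome 9, 50554450 to 50554699 (plus strand) for Il18 and 5308599 to 5308848 (plus) for Casp4, and over chromosome 11, 59541319 to 59541568 (plus) for Nlrp3. They run over chromosome 17, 74459109 to 74459358 (minus) for Nlrc4, and over chromosome 2, 129371140 to 129371389 (minus) for Il1b and 129309973 to 129310222 (minus) for Il1a. The promoter table matched 9 of the 10 genes, with 13 start sites. The TATA box TATAAA lay at -31 to -26 in Il1b and at -32 to -27 in Il1a, counted from the start, and on the minus strand at -175 to -170 in Il18; 11.7% of 21044 promoters hold it in 250 bases on either strand. A strict form of the NF-kB motif, which 1.44% of promoters hold, lay in Casp4 at -93 to -84 and, on the minus strand, at -14 to -5, and upstream of the second internal start of Il1rn. A looser NF-kB form, which includes the strict one and is in 4.85% of promoters, added a match in Casp4 at -39 to -30 that overlaps a match for PU.1. The short PU.1 form GGAAGT (20.5% of promoters) was found upstream of Casp4, Il1b, Nlrc4 and Pycard. The longer form GAGGAAGT, which holds the short one (2.25%), was found upstream of Pycard. The AP-1 form TGANTCA (6.17%) was found in Il1a, at -12 to -6, and upstream of the first start of Il1rn. The loose C/EBP form TTNCNNAA (34.1%) was found in all 6 sequences shown except that of Il18, as well as upstream of Il1rn and Pycard. The stricter C/EBP form TTGCNNCAA (1.53% of promoters), the IRF motif (2.98%) and the CREB motif TGACGTCA (1.94%) had no match upstream of these 13 starts. All motifs were searched on both strands, and a match is a description of letters, not a bound site.

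The loci were open at both ages, and none of the 10 differed by age past the threshold. Peaks covered 107 bp per kb of the Il1a locus and 104 of the Il1b locus, against a median of 53.3 over all loci. Nlrp3 had 94.7, Pycard 94.4, Casp1 93.3, Gsdmd 92.2, Casp4 70.9, Il18 60.3, Il1rn 54.6 and Nlrc4, the sparsest, 35.0 bp per kb. By limma on the deposited lists, 0 of 10 loci passed an adjusted p of 0.05, where 0.968% of 16939 loci did (0.39% wider in old and 0.579% narrower). The unadjusted limma p was under 0.05 for Nlrc4 alone of the 10, and for 12.8% of all loci. The 3 old values overlapped the 3 young values at each of the 10 loci, whereas over all loci the old values lay wholly below in 8.35% and wholly above in 8.63%. The median log2 change, old minus young, was -0.02 over the 10 loci and 0.007 over all loci, with 5 changes below 0 and 5 above.

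**Figure D1:**
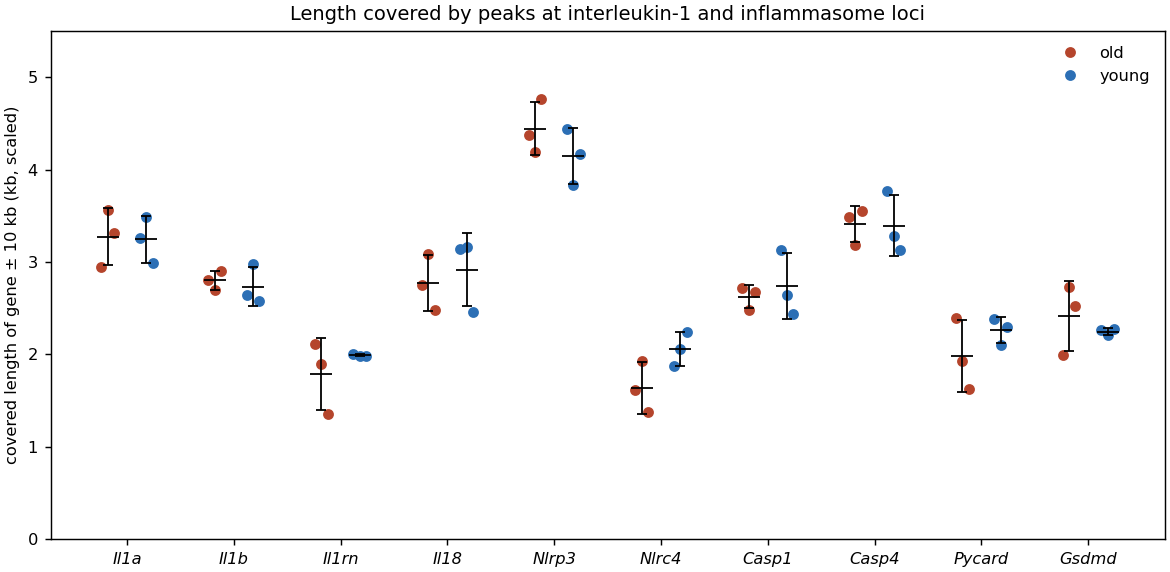
Scaled length covered by peaks (kb) at each gene with 10 kb on each side; each point is a library, and the bar is the mean ± SD of 3 libraries, old left of young. The old and young points overlap at each of the 10 genes.

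The strength of single regions was compared as a rank among the 121253 regions that had a peak in all 6 libraries, by the authors' −log10 q and in percentiles of each library. This rank was added after the data were seen and carries no test. Of the 129 regions, 51 were of this kind (39.5%, against 30.0% of all regions), 41 had a peak in 1 library (31.8%, against 40.7%), 1 had a peak in all old libraries alone (0.775%, against 0.513%) and 2 in all young libraries alone (1.55%, against 1.42%), which is near the share over all regions. An ATAC signal from 50000 cells cannot tell a smaller share of cells with an open site from a weaker opening in each cell.

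Among the cytokine genes, Il1b had its most open region upstream of the gene and a weak one at its start. The locus (chromosome 2, 129364569 to 129371164) was covered over 2809, 2700 and 2904 bp in old replicates 1, 2 and 3, against 2645, 2976 and 2579 bp in young. The values of both ages are interleaved (2804 ± 102 bp in old and 2733 ± 213 bp in young, SD, n = 3; log2 change 0.04, SE 0.09, limma adjusted p = 0.914). The region at the start (129371078 to 129371412), which spans the whole Il1b sequence printed above, ranked at 33.8, 23.2 and 20.5 in old and 24.6, 14.3 and 11.8 in young libraries, so its ranks are low and overlap between ages. By fold enrichment its ranks were 25.2, 15.5 and 18.2 in old and 11.7, 6.4 and 7.5 in young, with all old ranks above the young ones. The strongest region of the window, centred 2.3 kb upstream (129373088 to 129373841) ranked at 88.5, 92.8 and 87.3 in old and 95.6, 96.9 and 95.9 in young libraries. It lies within the span of the long non-coding RNA gene Il1bos, which also takes in the Il1b start. All old ranks of this region lay below the young ranks, and the same order held by fold enrichment (91.5, 95.9 and 91.9 in old, 96.2, 98.6 and 98.2 in young). A region 9.7 kb upstream (129380230 to 129381396) ranked at 62.8, 72.3 and 68.6 in old and 82.4, 85.3 and 72.9 in young, and by fold enrichment its ranks overlapped.

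**Figure D2:**
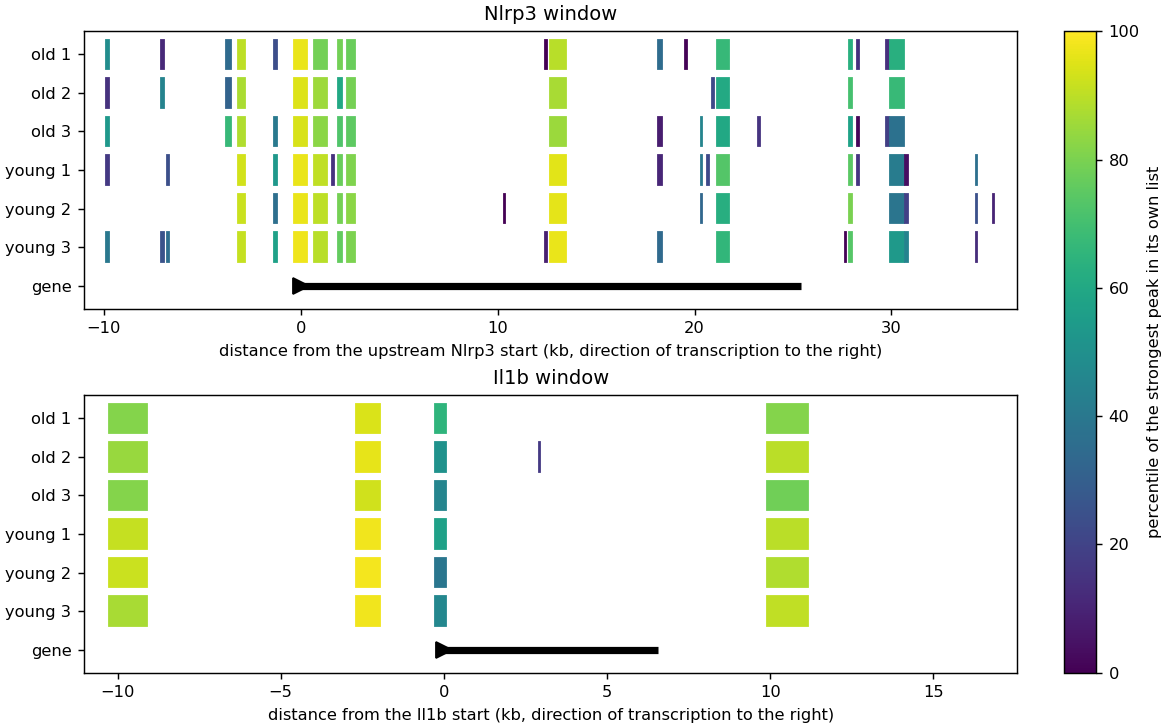
Open regions of the Nlrp3 and Il1b windows by distance from the start (kb), 1 row per library with old above young, coloured by the percentile of the strongest peak in that library's own list; the black bar is the gene and the arrow its start. The Il1b start region is weak in every row beside the region 2.3 kb upstream, and the Nlrp3 region 11.9 kb past the downstream start is yellower in the young rows, which marks a higher percentile.

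Il1a, the cytokine gene next to Il1b, had a start region of low rank. Its locus (chromosome 2, 129299609 to 129310186) was covered over 2951, 3559 and 3317 bp in old and 3255, 3491 and 2987 bp in young libraries, which overlap (3276 ± 306 bp in old and 3244 ± 252 bp in young, SD, n = 3; log2 change 0.01, SE 0.09, limma adjusted p = 0.977). The region at the start (129309944 to 129310332), which spans the Il1a sequence above, ranked at 1.0, 33.2 and 13.1 in old and 33.6, 0.3 and 0.6 in young, so libraries of the same age differed more than the ages did. The strongest region of the window (129296691 to 129297959) ranked at 98.6, 99.8 and 99.8 in old and 98.7, 99.3 and 98.9 in young. It holds the starts of the neighbouring genes Ckap2l and Gm14023, so much of the openness counted for Il1a lies at another gene. Regions 4.2 kb and 10.3 kb upstream of Il1a had all old ranks below all young ranks. The farther one (129319925 to 129320569) ranked at 94.1, 93.4 and 92.6 in old and 96.6, 96.9 and 96.4 in young, and both kept this order by fold enrichment.

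Il18 stood at the other end, with one of the strongest starts. Its locus (chromosome 9, 50554700 to 50581841) was covered over 2754, 3082 and 2478 bp in old and 3138, 3160 and 2458 bp in young (2771 ± 303 bp in old and 2919 ± 399 bp in young, SD, n = 3; log2 change -0.07, SE 0.11, limma adjusted p = 0.859). The region at the start (50554633 to 50555338) ranked at 97.0, 95.9 and 99.0 in old and 97.9, 96.2 and 98.7 in young, with overlapping ranks. Only the last part of the Il18 sequence above, from 50554633 on, lies in this region, and its TATA match does not. The region also holds a start of Bco2, a carotenoid-cleaving enzyme gene, and the openness there cannot be assigned to either gene. Smaller regions 1.0 kb and 2.3 kb upstream had all old ranks below all young ranks. By fold enrichment the one 2.3 kb upstream kept this order and the nearer one did not. Both lie within the span of Bco2, and the nearer one holds a start of Bco2, so they cannot be assigned to Il18 either.

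Il1rn, the receptor antagonist gene (chromosome 2, 24336860 to 24351491), was covered over 2115, 1899 and 1355 bp in old and 2006, 1984 and 1987 bp in young. Old replicate 3 was the lowest, and the old values spread more widely (1790 ± 391 bp in old and 1992 ± 11.8 bp in young, SD, n = 3; log2 change -0.16, SE 0.13, limma adjusted p = 0.678); without old replicate 3 the change was 0.01. No region took in the upstream start itself, but a small one (24336700 to 24336812) lay just before it, with a peak in 2 old and 3 young libraries. Its highest percentile within a list was 46.2 in old and 46.4 in young libraries, and old replicate 3 had no peak there. At the internal starts, the region (24345153 to 24345447) ranked at 74.5, 84.0 and 71.6 in old and 85.2, 80.8 and 87.5 in young, which overlap. The strongest region (24341293 to 24341932), inside the gene, ranked at 89.7, 93.0 and 87.8 in old and 93.6, 93.8 and 92.6 in young. A weak region 7.9 kb past the nearest start (24353130 to 24353413) went the other way, with 32.5, 32.2 and 31.3 in old and 13.8, 17.9 and 10.9 in young, and kept that order by fold enrichment.

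**Figure D3:**
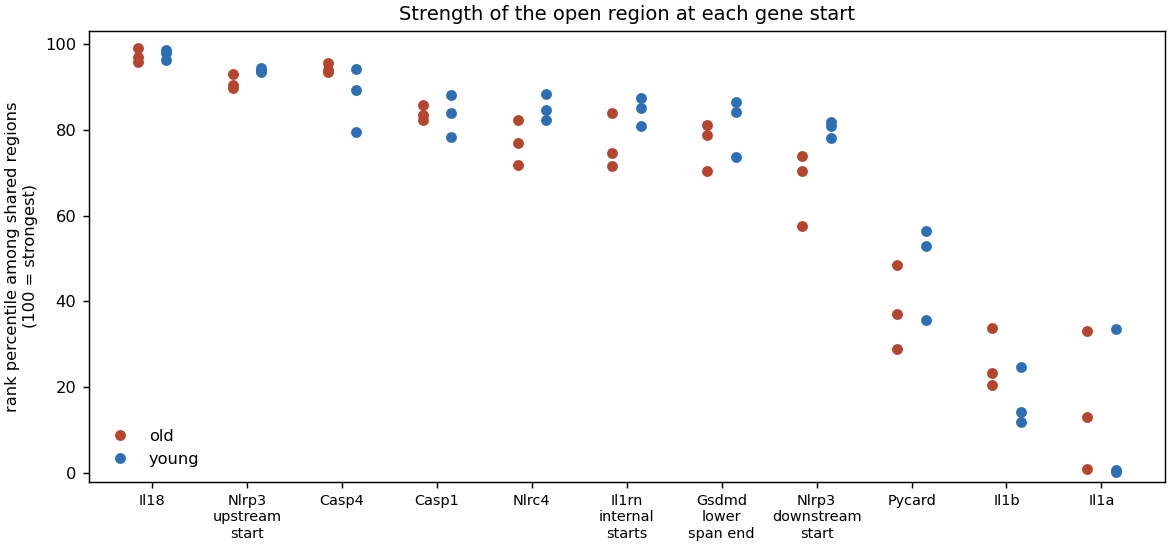
Rank percentile of the region at each gene start among regions with a peak in all 6 libraries (100 is the strongest); each point is a library, old left of young, and genes run from the strongest start to the weakest. The Il18 start ranked at 95.9 or above in every library, and the Il1b and Il1a starts at 33.8 or below. For Gsdmd, which has no strand in the tables used, the region at the lower end of the gene's span is shown.

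Of the sensors, Nlrp3 had 4 of its 9 shared regions ranked lower in old, although its locus was not narrower. Over all shared regions, 16.1% had all old ranks below all young ranks, and 13.2% by fold enrichment. Nlrp3 (chromosome 11, 59541569 to 59566955) was covered over 4376, 4197 and 4765 bp in old and 4444, 3832 and 4175 bp in young, the highest old value being above and the others among the young ones (4446 ± 290 bp in old and 4150 ± 307 bp in young, SD, n = 3; log2 change 0.10, SE 0.08, limma adjusted p = 0.704). At the upstream start, the region (59541249 to 59541865), which spans the Nlrp3 sequence above, ranked at 93.1, 90.5 and 89.7 in old and 93.6, 94.0 and 94.5 in young. At the downstream start, the region (59542249 to 59542890) ranked at 57.6, 73.8 and 70.4 in old and 80.9, 81.9 and 78.1 in young. In both the old ranks lay below the young ranks, narrowly at the upstream start, where old replicate 1 had 93.1 and young replicate 1 had 93.6. By fold enrichment both starts overlapped between ages, with 66.1, 72.4 and 71.8 in old and 60.3, 67.4 and 60.6 in young at the upstream start.

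The clearest separation at Nlrp3 was inside the gene. The region 11.9 kb past the downstream start (59554203 to 59555045) ranked at 78.4, 76.1 and 74.1 in old and 91.4, 92.6 and 92.9 in young, and by fold enrichment at 77.0, 76.1 and 73.9 in old and 91.6, 92.0 and 93.7 in young. The groups stand well apart on both scales. Its covered length did not pass the region test, and ran the other way (log2 change 0.30, unadjusted p = 0.0589 by limma's fit over all regions). A region 3.0 kb upstream ranked at 80.2, 76.8 and 79.3 in old and 86.0, 85.5 and 82.2 in young, and overlapped by fold enrichment. The 3 regions of the set found in all libraries of 1 age and none of the other were at Nlrp3, whose window holds 29 of the 129 regions, the most of the 9. The region of old libraries alone (59537796 to 59538018) stood at percentiles 34.4, 31.6 and 66.8 of the lists of old replicates 1, 2 and 3. The regions of young libraries alone stood at 3.8, 18.9 and 44.6 (59572240 to 59572405) and at 36.4, 24.8 and 12.7 (59575866 to 59575911), so none was among the strong peaks of its list.

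Nlrc4, the sensor that works with NAIP proteins on bacterial flagellin and secretion needles, had the lowest unadjusted p of the 10 loci and did not pass. Its locus (chromosome 17, 74426255 to 74459144) was covered over 1609, 1932 and 1370 bp in old and 1878, 2060 and 2243 bp in young, with old replicate 2 above young replicate 1 (1637 ± 282 bp in old and 2060 ± 183 bp in young, SD, n = 3; log2 change -0.31, SE 0.13, unadjusted p = 0.0253, limma adjusted p = 0.304). The region at the start (74459076 to 74459440), which spans the Nlrc4 sequence above and was the strongest of the window, ranked at 82.2, 77.0 and 71.7 in old and 84.6, 82.3 and 88.4 in young. Old replicate 1 and young replicate 2 nearly touch, and by fold enrichment the ranks overlapped. Inside the gene, the region 18.4 kb past the start (74440507 to 74440960) ranked at 42.2, 46.7 and 39.9 in old and 56.4, 61.0 and 59.9 in young, and by fold enrichment at 51.6, 51.7 and 47.0 in old and 66.4, 71.8 and 73.1 in young. In all, 3 of the 4 shared regions at Nlrc4 had old ranks below the young ranks, where 16.1% of all shared regions did. The third was the one 0.3 kb past the start.

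Pycard, the adaptor gene, had a weak start and an upstream region that ranked higher in old libraries. The locus (chromosome 7, 127991373 to 127993867) was covered over 2394, 1932 and 1621 bp in old and 2386, 2106 and 2297 bp in young, which overlap (1982 ± 389 bp in old and 2263 ± 143 bp in young, SD, n = 3; log2 change -0.19, SE 0.12, limma adjusted p = 0.574). The region at the start (127992729 to 127993993) ranked at 29.0, 37.0 and 48.6 in old and 56.5, 52.9 and 35.6 in young, and the strongest region, 2.0 kb past the start, at 86.5, 68.7 and 87.1 in old and 81.2, 86.3 and 77.2 in young. The region 5.8 kb upstream (127999513 to 127999832) ranked at 62.6, 66.2 and 71.4 in old and 36.4, 40.7 and 40.0 in young, and at 48.2, 58.6 and 65.8 in old and 20.3, 26.9 and 24.8 in young by fold enrichment. The groups stand far apart on both scales. The span of the neighbouring gene Trim72 (128003462 to 128011393) lies nearer to this region than the Pycard start does.

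The caspase genes Casp1 and Casp4 lie next to each other and have peaks in common, so they do not give separate evidence. Over their joint window, peaks covered 4045, 3671 and 4016 bp in old and 4390, 3874 and 3621 bp in young (3911 ± 208 bp in old and 3962 ± 392 bp in young, SD, n = 3; two-sided exact permutation p = 1.0, where 3 against 3 cannot go below 0.10). Casp1 (chromosome 9, 5298517 to 5307281) had 2718, 2484 and 2675 bp in old and 3135, 2642 and 2441 bp in young (log2 change -0.05, SE 0.10, limma adjusted p = 0.890). Casp4 (chromosome 9, 5308849 to 5336791) had 3483, 3189 and 3556 bp in old and 3767, 3280 and 3131 bp in young (log2 change 0.01, SE 0.09, limma adjusted p = 0.982). The values of both ages overlap for each gene. At the Casp1 start the region (5298125 to 5299455) ranked at 83.4, 85.9 and 82.3 in old and 78.4, 83.9 and 88.2 in young. At the Casp4 start the region (5308039 to 5309664), which spans the Casp4 sequence with its NF-kB matches, was the strongest of the window and ranked at 93.9, 95.6 and 93.4 in old and 79.6, 94.3 and 89.4 in young; young replicate 1 stands lowest. A further region, at the start of the neighbouring gene Casp12 (5344977 to 5345910) ranked at 82.2, 80.5 and 81.7 in old and 72.1, 68.4 and 72.8 in young, with all old ranks above the young ones on both scales.

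Gsdmd, which encodes the pore-forming gasdermin D (chromosome 15, 75862144 to 75867408), was covered over 1990, 2724 and 2521 bp in old and 2267, 2204 and 2270 bp in young. The old values lie on either side of the young ones (2412 ± 379 bp in old and 2247 ± 37.0 bp in young, SD, n = 3; log2 change 0.08, SE 0.11, limma adjusted p = 0.820). The strongest region (75856728 to 75857688), 4.9 kb before the lower end of the gene's span, ranked at 95.5, 94.2 and 94.2 in old and 95.3, 94.3 and 96.2 in young. At that lower end the region ranked at 78.8, 81.1 and 70.5 in old and 84.1, 86.4 and 73.7 in young, which overlap.

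**Figure D4:**
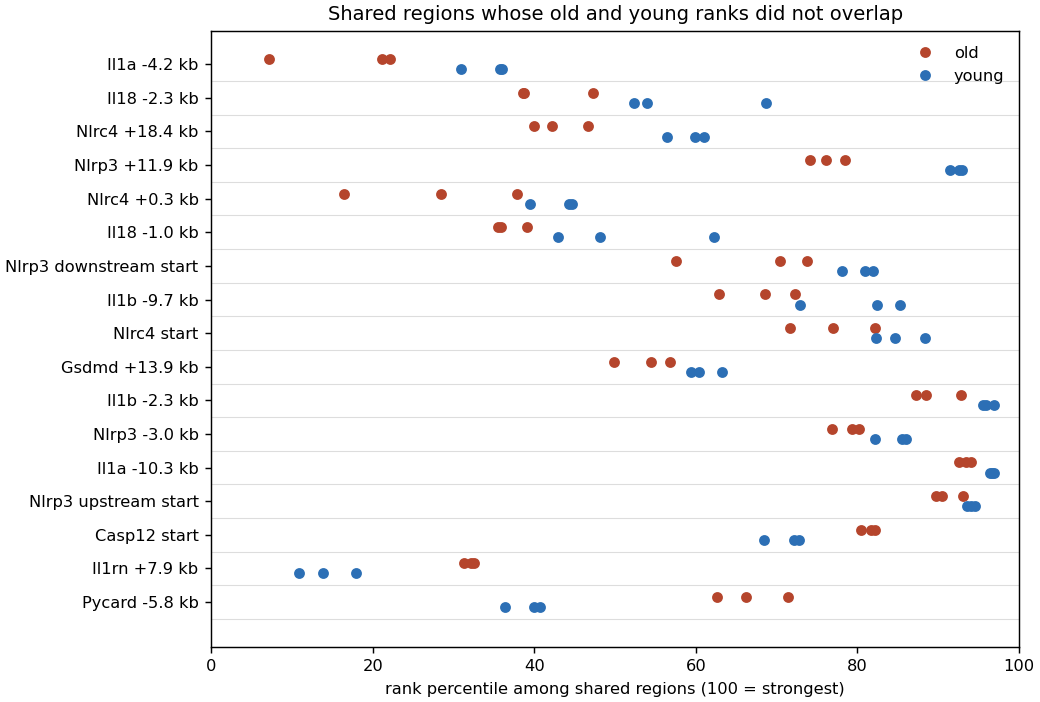
The 17 shared regions of the windows whose 3 old and 3 young ranks did not overlap, by rank percentile (100 is the strongest); each point is a library, old above young, and labels give the distance of the region's centre from the nearest start, or from the lower span end for Gsdmd. The upper 14 rows have old to the left of young and the lower 3 rows have old to the right.

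Counted together, 14 of the 51 shared regions had all old ranks below all young ranks (27.5%, where 16.1% of all shared regions did) and 3 had all above (5.88%, against 16.7%), while 34 overlapped. By window the 14 were 4 of 9 at Nlrp3, 3 of 4 at Nlrc4, 2 of 4 at Il1b, 2 of 9 at Il1a, 2 of 7 at Il18 and 1 of 4 at Gsdmd. The median difference, old minus young, was -4.2 percentiles, against -0.31 over all shared regions. Ranked by fold enrichment, the counts were 8 below (15.7%, against 13.2% of all shared regions) and 4 above (7.84%, against 14%), and the median difference was 0.3 against 0.1, so the shift of the whole set is not seen on that scale. Of the 14 regions, 7 kept their order by fold enrichment, and of the 3 all 3 did. With fewer libraries, ranks that do not overlap become more common among all shared regions. Without old replicate 1 the 3 became 7 (13.5%, against 21.9% of all), without old replicate 3 they became 5 (9.26%, against 20.0%), without young replicate 1 they became 6 (11.5%, against 20.1%) and without young replicate 2 they became 5 (9.43%, against 20.9%).

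Regions at cell type markers went in different directions by list. At 11 macrophage marker genes, 28 of 83 shared regions had old ranks below the young ranks (33.7%) and 7 above (8.43%), and at 7 stromal and osteoblast marker genes 7 of 108 had them below (6.48%) and 34 above (31.5%). Fold enrichment gave counts of 17 (20.5%) and 6 (7.23%) for the macrophage and 6 (5.56%) and 24 (22.2%) for the stromal and osteoblast markers. Of all shared regions, 16.1% had old ranks below and 16.7% above, and by fold enrichment 13.2% and 14%. By −log10 q, B-cell markers had 26.3% of 19 regions below and 15.8% above, and T-cell markers 25.0% of 16 below and 12.5% above. Neutrophil markers had 3 of 28 below and 2 above, and endothelial markers 3 of 25 below and 2 above. The erythroid list had 1 of 6 below, the mast cell and basophil list 2 of 2, and neither had any above. Summed covered length at the macrophage markers was 37869 to 40420 bp in old and 40118 to 40595 bp in young libraries, and at the stromal and osteoblast markers 46150 to 50198 bp in old and 45590 to 50059 bp in young. Neither list had a gene at 0 in every library. Of the 8 marker lists, the 3 endothelial genes alone had summed lengths that did not overlap, with 10834 to 11551 bp in old and 12007 to 12244 bp in young libraries. Their part in the lower ranks of the interleukin-1 and inflammasome regions was not tested, and the lower ranks are not particular to these genes.

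The region test gave no call in the windows on the deposited lists. Over all 111629 regions tested, 6930 wider and 7156 narrower in old had an unadjusted limma p under 0.05. Adjusted, 0.152% passed (0.0797% wider and 0.0726% narrower in old). Of 48 regions tested in the windows, 0 passed (lowest limma adjusted p = 0.249, with 2 regions at an unadjusted p under 0.05). The 2 regions were at 127983235 to 127983794 in the Pycard window (log2 change -0.63, SE 0.20, limma adjusted p = 0.249) and at 74430536 to 74431267 inside Nlrc4 (log2 change -1.40, SE 0.49, limma adjusted p = 0.276). The Nlrc4 region was covered over 228, 288 and 0 bp in old and 393, 586 and 732 bp in young libraries, old replicate 3 having no peak there.

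Among the 50000 strongest peaks of each library, lists equal in number of peaks, 9 loci had lower values in old and Pycard higher ones, and none of those tested passed. Pycard, which went the other way with 461, 804 and 626 bp in old and 288, 239 and 297 bp in young, fell below the filter of 500 bp and was not tested. Of the other 9, 0 passed by limma (1.27% of 14377 loci did, 0.835% wider and 0.438% narrower in old). The unadjusted p was under 0.05 for Casp1, Nlrc4 and Casp4, and for 14.8% of all loci. All 9 changes tested were below 0, as were 50.3% of all loci; the median was -0.33, against -0.0017 over all loci. Casp1 had 1224, 1314 and 1461 bp in old and 2697, 1740 and 1763 bp in young (log2 change -0.54, SE 0.17, limma adjusted p = 0.186). Casp4, over partly the same peaks, had 1429, 1768 and 1955 bp in old and 2915, 2063 and 2101 bp in young (log2 change -0.41, SE 0.16, limma adjusted p = 0.276). Nlrc4 had 334, 742 and 333 bp in old and 802, 804 and 975 bp in young (log2 change -0.71, SE 0.25, limma adjusted p = 0.227).

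For Casp1, Casp4 and Nlrc4 the old values lay wholly below the young ones, as at 10.5% of all loci, and they lay wholly above at 9.88%. The changes of Il1a and Il1b were -0.34 (SE 0.23) and -0.33 (SE 0.16), and those of Nlrp3, Il1rn, Il18 and Gsdmd lay between -0.07 and -0.01. Of 27 regions tested on these lists, 1 passed, where 5.96% of 46902 did (3.77% wider and 2.19% narrower in old). It was the region 5.8 kb upstream of Pycard, which was among the strongest 50000 in each old library and in no young library (log2 change 2.01, SE 0.29, limma adjusted p = 0.0106). Its mean passed the filter through the old libraries alone, so this value says no more than that presence. On the deposited lists it had a peak in each library (log2 change 0.26, SE 0.18, limma adjusted p = 0.611), and without young replicate 1 the strongest peaks gave an adjusted p of 0.0609 by limma. Without any 1 of the old libraries it fell below the filter.

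**Figure D5:**
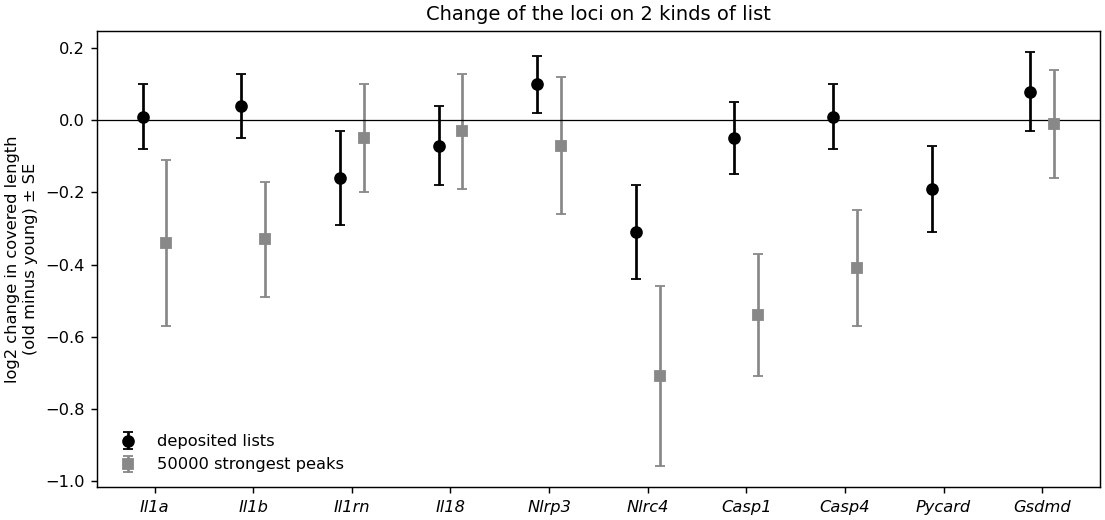
Log2 change in covered length, old minus young, with its SE from the limma fit (n = 3 libraries of each age), for the deposited lists (circles) and the 50000 strongest peaks (squares). On the deposited lists 5 genes lie below 0 and 5 above; on the strongest peaks all 9 tested lie below 0, and Pycard was not tested there.

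Other genes of the pathway did not pass either. Of 61 listed genes, 60 were matched and 51 tested on the deposited lists; 0 were wider and 0 narrower in old, with a median log2 change of 0.01, and 0 of 42 passed on the strongest peaks (limma; 0.968% and 1.27% of all loci passed). An unadjusted p under 0.05 was found for 5 of the 51 (9.8%, against 12.8% of all loci) and for 4 of the 42 (9.52%, against 14.8%). The receptor genes of interleukin-18 had the smallest p. Il18rap, which encodes its accessory chain, was covered over 1009, 881 and 976 bp in old and 1227, 1511 and 1459 bp in young (log2 change -0.47, SE 0.14, unadjusted p = 0.00365, limma adjusted p = 0.130). Il18r1, its binding chain and the neighbour of Il18rap on chromosome 1, had 1281, 652 and 1419 bp in old and 1679, 1835 and 2183 bp in young (log2 change -0.72, SE 0.21, unadjusted p = 0.00582, limma adjusted p = 0.159). Both genes had all old values below all young values, as at 8.35% of all loci, and are sparsely covered loci. With 10 kb on each side their loci overlap and can count the same peaks, so they do not give separate evidence. Il1rap, also of the receptor list, went the other way (log2 change 0.18, SE 0.08, unadjusted p = 0.0405, limma adjusted p = 0.357). Its old values lay wholly above the young ones on both kinds of list, as at 8.63% and 9.88% of all loci.

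In the other roles the genes with the smallest p did not pass either. Of the signalling genes, Nfkb1, a subunit of NF-kB, had a log2 change of -0.18 (SE 0.06, limma adjusted p = 0.219) and Map3k7, the kinase TAK1 below the receptor, -0.23 (SE 0.09, limma adjusted p = 0.292). Of the sensors, Nlrp1b had -0.33 (SE 0.19, limma adjusted p = 0.485) and Mefv, which encodes pyrin, -0.17 (SE 0.10, limma adjusted p = 0.494). Of the regulators, Dpp8, whose product restrains NLRP1, had 0.18 (limma adjusted p = 0.425) and Casp8 -0.16 (limma adjusted p = 0.479). Of the ligands, Il1f9, which encodes interleukin-36γ, had 0.46 (SE 0.24, limma adjusted p = 0.460) and Il1f10 0.23 (SE 0.23, limma adjusted p = 0.745). The Naip sensor genes are near-identical copies whose peaks depend on how reads were placed, so their values are uncertain.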

How the data were processed

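Sequencing was paired-end at 125 bp over 4 lanes, per the labels' protocols. Tools named in the submitters' processing notes, with neither role nor order, are MACS2 2.1.0.20140616, Bowtie2 2.2.6, Picard, SAMtools, cutadapt 1.14 and Trim Galore 0.4.4, beside the build mm10. The authors deposited a broad peak list for each library without pooling. Of the deposited values of a peak, the score is 10 times the −log10 q, cut to a whole number. The fold enrichment is a ratio to that library's local background, and the −log10 p and −log10 q come from the authors' caller; they ranked or filtered peaks within 1 list. Duplicate removal, the shift of read ends and masking: not given in the sources used here. With read depth unknown, a deeper library can have more and wider peaks, and a missing peak means that none was called.

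Gene spans, starts and upstream sequences came from RefSeq (GRCm38.p6, the build whose primary chromosomes mm10 holds). Covered length per gene with 10 kb on each side was scaled to the library's sum over all genes. Loci with a mean of at least 500 bp entered limma 3.58.1 (R 4.3.3; trend and robust options) on log2(bp + 200) as old minus young, adjusted by Benjamini-Hochberg over all loci. Regions, peaks merged at an overlap of 1 bp, were tested likewise from 150 bp on log2(bp + 100). Fold changes on these scales understate changes at sparse loci. The fits were also run on simulated lengths with independent noise, which do not mimic how peaks are called, and no result here rests on them. Other steps used Python 3.11.15, numpy 2.4.6, pandas 2.3.3, scipy 1.17.1 and matplotlib 3.10.9.

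The genes, the related genes and the marker lists were chosen with earlier results of these data known. Named regions are those at gene starts, the strongest of each window, those of 1 age alone and those called. The related genes given with values are the 2 with the smallest p in each role, and Il1rap, added after its values were seen. The regions named for ranks that did not overlap, and the ranks among shared regions, were chosen after the values were seen, as were the 2 regions at an unadjusted p under 0.05. Alternatives were other peak thresholds, window sizes, pseudocounts, scalings and filters, the replicate number as a block, and each library left out in turn.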

Additional observations from a re-analysis of the deposited data

How the results depend on the processing

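Of 167 values of the 10 member loci under the alternatives, 0 passed the threshold (lowest limma adjusted p = 0.178). Of these values, 135 kept their sign and 32 changed it. Nlrc4 kept its sign in all of its values, and so did Pycard in its 16, which leave out the 50000 strongest peaks. On those peaks Pycard was not tested, and its covered lengths ran the other way. They were 461, 804 and 626 bp in old and 288, 239 and 297 bp in young libraries. With peaks of −log10 q of at least 5, the log2 change was -0.31 for Il1a, -0.04 for Il1b, 0.17 for Il1rn, -0.18 for Casp4 and -0.08 for Gsdmd. On the 50000 strongest peaks it was -0.34, -0.33, -0.07, -0.41 and -0.01 for Il1a, Il1b, Nlrp3, Casp4 and Gsdmd. Without scaling it was -0.14 for Il1a, -0.12 for Il1b, -0.06 for Nlrp3, -0.15 for Casp4 and -0.07 for Gsdmd, while the median of all loci moved to -0.145. With total covered length as a covariate it was -0.09, -0.01 and -0.02 for Il1a, Il1b and Gsdmd, with 5 kb on each side -0.04 for Il1a and -0.06 for Casp4, and with quantile normalization -0.00 for Casp4. Where leaving out a library changed the sign, the changes ran from -0.05 to 0.08 for Il1a, -0.00 to 0.10 for Il1b, -0.28 to 0.01 for Il1rn, -0.18 to 0.01 for Il18, -0.12 to 0.04 for Casp1, -0.04 to 0.08 for Casp4 and -0.00 to 0.20 for Gsdmd. On the strongest peaks they ran from -0.16 to 0.07 for Il1rn, -0.20 to 0.08 for Il18, -0.23 to 0.13 for Nlrp3 and -0.14 to 0.14 for Gsdmd.

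Over all loci, 66 were wider and 98 narrower in old. There were 3 and 6 at a −log10 q of at least 5, 120 and 63 on the strongest peaks, 2 and 0 for 2 kb around the gene ends, 38 and 30 with the covariate, 2 and 13 without scaling, and 0 and 4 without the filter. Leaving out a library gave 15 to 88 wider and 14 to 252 narrower, both lowest without young replicate 1 and highest without old replicate 1. Of all regions, 89 were wider and 81 narrower; there were 54 and 50 at a −log10 q of at least 2, 1766 and 1029 on the strongest peaks, 0 and 0 without scaling, 3115 and 4549 without the filter, and 7 to 57 and 0 to 224 without a library. The old minus young difference of the Casp1 and Casp4 window was -51 bp, and -374, -723 and -470 bp at a −log10 q of at least 5, on the strongest peaks and without scaling. It turned to 71 bp at a −log10 q of at least 2 and ran from -215 bp (without young replicate 3) to 160 bp (without young replicate 1) without a library. That of the 9 windows together was -542 bp, and -1759, -1797 and -3311 bp in those 3 settings, 173 bp at a −log10 q of at least 2, and -989 to -121 bp without a library. With 5 kb on each side the differences were -112 and -281 bp. The 14 shared regions with lower old ranks were 8 by fold enrichment (13.2% of all shared regions) and 15 to 21 without a library (20.0 to 22.4% of all); the 3 with higher old ranks were 4 to 7 without a library (20.0 to 21.9% of all), with 7 without old replicate 1. The cause of these changes was not tested.

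Same-numbered old and young libraries correlated at 0.14, 0.14 and -0.16 in their deviations on the deposited lists. On the strongest peaks they correlated at 0.04, 0.05 and 0.03. Pairs of different number ran from -0.33 to 0.27 and from -0.07 to 0.03. With 3 libraries of each age these values cannot decide whether the numbers pair libraries, and the labels do not say so. With the replicate number as a block, 95 loci were wider and 170 narrower, 0 regions passed in either direction, and on the strongest peaks 0 loci passed and the region upstream of Pycard had a limma adjusted p of 0.0819. Depth is not known, and the number of libraries limits the precision.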
